A study of Homo sapiens with 4 samples.

Results

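LINC transcript clusters are the rows of the array whose gene symbol is LINC and a number, the placeholder name given to long intergenic noncoding RNA genes. They were taken as all gene-level rows with a single symbol of that form in the authors' deposited comparison sheet, which gave 430 rows with 405 distinct symbols, out of 53617 gene-level rows in all and 25937 with a single symbol. Gene expression had been measured in MDA-MB231, an established human breast carcinoma line, grown for 3 days in treated medium or in control medium. Both media were concentrated DMEM diluted with 9 parts of hypotonic saline, and for the treated medium a BEFE unit's dc DEP EMF had acted on that saline for 30 minutes beforehand. For each medium the files hold a single column of log2 signal by gene and a single column by exon, so no comparison has a replicate check, an error or a p-value, and every difference is log2 treated minus log2 control.

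Long intergenic noncoding RNAs are transcribed, spliced and polyadenylated much like messenger RNAs, but most are short of long open reading frames, are kept at low levels and are restricted to few cell types. Known members act as scaffolds or decoys for proteins in the nucleus or the cytoplasm, or their transcription affects genes nearby. LINC is a provisional label: a gene may lose it once a function, a host role or an encoded small protein is described, though some described genes keep it. In breast carcinoma lines several of them have been studied for effects on proliferation, DNA damage handling and invasion.

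Of the 8 LINC genes that differed by at least 2-fold, 5 had a promoter sequence in the set used, and LINC00629, LINC00520 and LINC00663 had none. The upstream sequences of 4 of these 5 genes are shown first, because nothing else in the files describes the genes beyond a name and an accession. They come from RefSeq, build GRCh38.p14, and each runs from 250 bases before to 50 bases after the gene's start. Capitals mark matches to TGANTCA, the AP-1 motif, which was searched on both strands together with TGATGNAA, the composite element of ATF4 and C/EBP factors, and TTTNNCGC, the E2F motif. No match in these sequences overlapped another.
LINC00571, chr13:38143183-38143482, minus strand: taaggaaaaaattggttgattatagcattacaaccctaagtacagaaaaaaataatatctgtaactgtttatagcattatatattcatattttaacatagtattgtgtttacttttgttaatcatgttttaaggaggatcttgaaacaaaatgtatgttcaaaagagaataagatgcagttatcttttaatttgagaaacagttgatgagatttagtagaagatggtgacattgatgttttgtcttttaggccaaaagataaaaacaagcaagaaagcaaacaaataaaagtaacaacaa
LINC00887, chr3:194312755-194313054, minus strand: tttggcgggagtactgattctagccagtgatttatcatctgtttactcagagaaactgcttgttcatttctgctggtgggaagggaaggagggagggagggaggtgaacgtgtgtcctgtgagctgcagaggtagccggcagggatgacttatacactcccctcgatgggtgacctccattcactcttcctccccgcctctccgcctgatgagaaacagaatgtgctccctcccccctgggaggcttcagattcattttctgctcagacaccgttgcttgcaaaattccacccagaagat
LINC00261, chr20:22578593-22578892, minus strand: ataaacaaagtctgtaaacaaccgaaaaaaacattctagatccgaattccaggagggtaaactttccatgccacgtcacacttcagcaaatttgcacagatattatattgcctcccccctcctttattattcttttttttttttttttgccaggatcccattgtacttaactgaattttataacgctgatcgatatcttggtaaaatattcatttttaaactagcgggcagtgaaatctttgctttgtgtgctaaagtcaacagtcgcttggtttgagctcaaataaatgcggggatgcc
LINC00704 (current symbol MANCR), chr10:4678021-4678320, minus strand: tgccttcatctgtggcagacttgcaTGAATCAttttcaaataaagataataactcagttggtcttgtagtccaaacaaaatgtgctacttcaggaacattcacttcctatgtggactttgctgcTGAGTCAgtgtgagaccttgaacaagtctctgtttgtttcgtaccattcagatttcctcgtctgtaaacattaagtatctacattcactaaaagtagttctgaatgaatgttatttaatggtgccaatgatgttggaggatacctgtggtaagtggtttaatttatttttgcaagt

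LINC00704 held 2 matches to the AP-1 motif, and the other 3 sequences held no match to any of the 3 motifs. The promoter of LINC00669, not printed, held none. Promoters were matched by current symbol, which gave 325 promoters of 286 symbols, for 304 of the 430 LINC rows. Such a match can give the promoter of a coding gene that a row is now listed under. Among the 325 promoters matched to LINC rows, 12.6% held TGANTCA, 5.23% held TGATGNAA and 4.31% held TTTNNCGC. Among all 35116 RefSeq promoters of the same length, 7.71% held TGANTCA, 3.62% held TGATGNAA and 6.89% held TTTNNCGC. The 325 matched promoters had a lower median GC content than all promoters, 52.0% against 58.7%, and the part of base composition in these shares was not tested. A match is a run of letters and not a bound site, and an absent match says only that the letters are not in this window.

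Most LINC rows had low signal. Their mean over both media had a median of 5.80 and ran from 2.81 to 12.2, against a median of 7.20 for the 25507 other rows with a single symbol. A floor of 7.17, the median of all single-symbol rows, was passed by 63 LINC rows (14.7%), by 17.6% of 797 antisense-named rows and by 50.6% of the other rows. Of 443 olfactory receptor rows, sensory genes taken as a gauge of low signal, 95% had a mean under 6.98, and 73 LINC rows (17.0%) were above that level. A low signal on an array may hold little but background, so the rows under the floor are given apart.

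The line's own listed markers, genes of basal and mesenchymal breast cells, were above the floor. VIM, CD44, EGFR and CAV1 had signals between 9.60 and 11.69 in treated medium and between 9.90 and 11.59 in control medium. SPARC, on the same list, was nearer the floor, with 7.25 in treated and 7.97 in control medium. The receptor genes ESR1 and PGR had signals of 6.22 and 5.60 in both media, under the floor, and CDH1, the epithelial cadherin gene, was under it too, with 6.29 in treated and 5.81 in control medium. ERBB2 had 8.41 in treated and 9.05 in control medium, and the luminal genes GATA3 and EPCAM were also above the floor, with 7.85 and 7.26 in treated medium and 8.04 and 7.70 in control medium. Of the markers of other cell types, PTPRC and CD3E (leukocytes), VWF (endothelium), COL3A1 and DCN (fibroblasts) were under the floor in mean signal, and COL1A1 was above it with 7.27 in treated and 7.43 in control medium. Fewer cells of one kind and less RNA per cell cannot be told apart in such bulk samples.

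**Figure D1:**
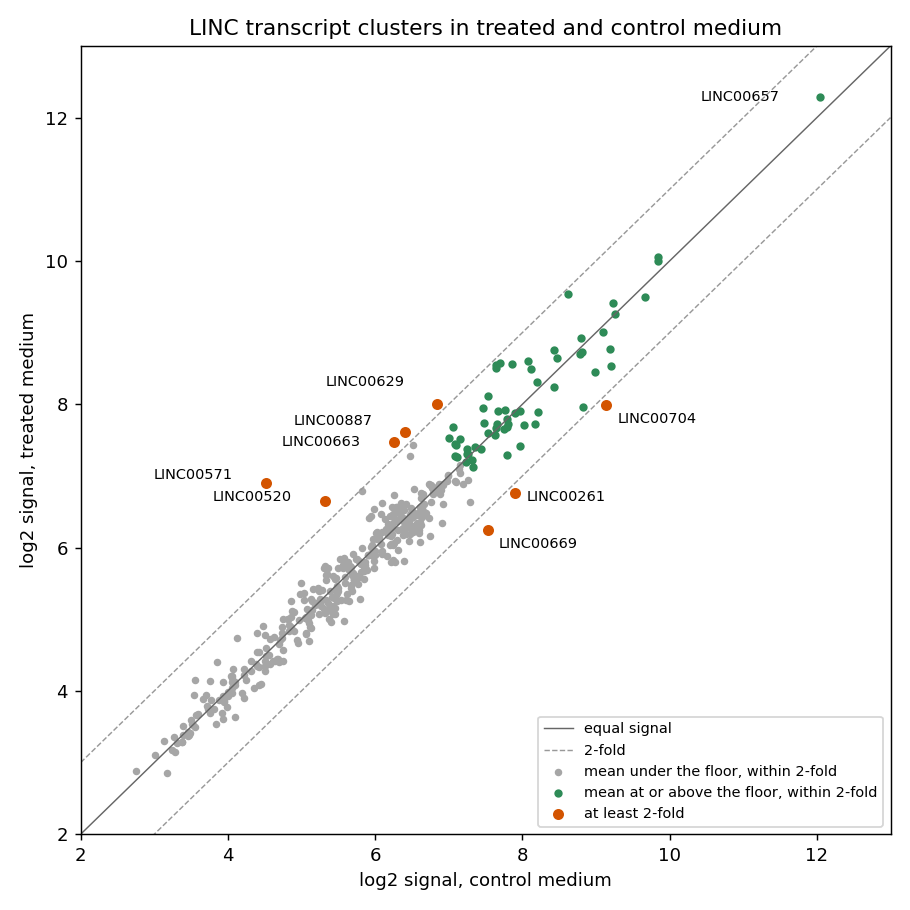
Gene-level log2 signal of the 430 LINC transcript clusters in treated medium (vertical axis) against control medium (horizontal axis); each point is 1 cluster. Most points lie along the line of equal signal, 8 clusters (orange) lie past the dashed 2-fold lines, and LINC00657 stands alone at the top with 12.29 in treated and 12.04 in control medium.

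Few LINC rows differed between the media. Above the floor, of 63 rows 1 was higher by 2-fold or more in treated medium and 2 were lower by as much, where 3.15% and 3.43% of the 12969 single-symbol rows above the floor passed in those directions. The shares of LINC rows, on counts this small, are near that background. The median difference of the 63 rows was 0.06 (quartiles -0.09 and 0.29), beside -0.00083 for all single-symbol rows above the floor, and 35 rows were above 0, 26 below and 2 at 0. At 1.5-fold, 7 rows were higher and 4 lower, where 9.45% and 9.55% of rows passed. Over all 430 rows the median was -0.02, with 181 above 0, 231 below and 18 at exactly 0.

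The row that passed 2-fold upward above the floor was LINC00629 (transcript cluster 17107055), an X-chromosomal gene of undescribed function here. Its log2 signal was 8.01 in treated medium and 6.85 in control medium, a difference of 1.16 or 2.23-fold. The control value was under the floor, so the size of the difference is uncertain, and measured against the floor it was 0.83. Its 6 exon-level probe sets were not alike: the first in ID order differed by -0.04 and the second by 0.34, while the other 4 differed by 1.15 to 1.99. Its nearest protein-coding gene in RefSeq, PLAC1, differed by 0.24.

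LINC00704 (transcript cluster 16711312), now named MANCR for mitotically associated long noncoding RNA, was the lowest row above the floor. Its log2 signal was 7.99 in treated medium and 9.14 in control medium, a difference of -1.15 or 2.22-fold lower, and it was the only LINC row past 2-fold that stood above the floor in both media. All 8 of its exon-level probe sets were lower in treated medium, by -0.42 to -1.50. The nearest coding gene, AKR1E2, an aldo-keto reductase gene, had a mean of 5.37 and a difference of 0.16. LINC00702 (transcript cluster 16711299), whose nearest coding gene is the zinc finger factor gene KLF6, had signals of 8.11 in treated and 7.53 in control medium, a difference of 0.58 beside 0.18 for KLF6. MANCR and LINC00702 lie on the same chromosome and differed in opposite directions.

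LINC00261 (transcript cluster 16917810) is a lncRNA gene next to FOXA2, a transcription factor gene of endoderm, and is studied for its part in endoderm differentiation. Its log2 signal was 6.76 in treated medium and 7.90 in control medium, a difference of -1.15 or 2.21-fold lower, and the treated value was under the floor. Of its 9 exon-level probe sets 7 were lower and 2 higher, and the lowest stood at -3.75. FOXA2 had a log2 signal of 10.81 in treated and 10.89 in control medium, a difference of -0.08. The neighbouring genes had unlike differences on this array.

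Of the other rows above the floor, the lowest were LINC00673, LINC00601 and LINC00282. LINC00673 (transcript cluster 16848435), a lncRNA gene known from pancreatic carcinoma for promoting breakdown of the phosphatase PTPN11, had a log2 signal of 7.96 in treated and 8.82 in control medium, a difference of -0.86. LINC00601 had signals of 8.53 in treated and 9.20 in control medium, and all 4 of its exon-level probe sets were lower. LINC00282, listed in RefSeq as the membrane protein gene TMEM272, had 7.41 in treated and 7.97 in control medium. LINC00674 differed by -0.54, and its nearest coding gene KPNA2, a nuclear import receptor gene, by -0.71. LINC00152, now CYTOR or cytoskeleton regulator RNA, had 7.72 in treated and 8.17 in control medium, but its 3 exon-level probe sets ran from -0.85 to 1.21. LINC00641 and LINC00173 completed the 10 lowest with LINC00337, at -0.43, -0.32 and -0.51. This LINC00173 row was read by 1 exon-level probe set, and the gene's other row, under the floor, differed by 0.18.

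The next highest rows after LINC00629 were LINC00328 and the 3 rows of LINC00623. LINC00328 (transcript cluster 16669501), which had no match in RefSeq, had a log2 signal of 9.53 in treated and 8.61 in control medium, a difference of 0.92. The LINC00623 rows had signals of 8.57, 8.55 and 8.51 in treated medium and 7.70, 7.65 and 7.64 in control medium, with differences of 0.87, 0.91 and 0.87. These 3 rows carry the same accession and 2 of them share the same lowest and highest exon-level difference (-1.22 and 2.86), so they are not independent values, and signal of near-identical copies cannot be separated. LINC00869 had 8.56 in treated and 7.86 in control medium, and LINC00565, now SWINGN, had 7.68 in treated and 7.06 in control medium. LINC00938 and LINC00471 differed by 0.53 and 0.52 and completed the 10 highest.

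**Figure D2:**
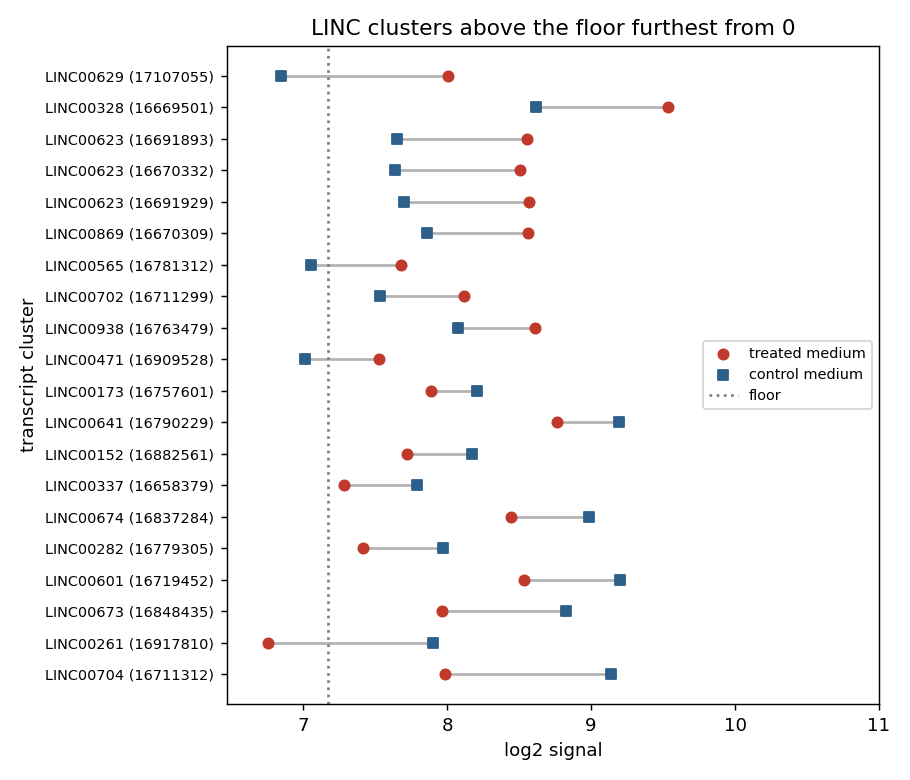
Log2 signal of the 20 LINC transcript clusters above the floor with the highest and lowest differences, in treated medium (red circles) and control medium (blue squares); the dotted line is the floor of 7.17. Only LINC00629, LINC00261 and LINC00704 span at least 1 log2 unit, and LINC00629, LINC00565, LINC00471 and LINC00261 cross the floor.

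Under the floor, 5 of 367 rows passed 2-fold, 4 higher and 1 lower, where 0.841% and 0.601% of the 12968 single-symbol rows under the floor passed. LINC00571 (transcript cluster 16778294) had the highest difference of all LINC rows, with a log2 signal of 6.91 in treated and 4.52 in control medium, a difference of 2.39. All 7 of its exon-level probe sets were higher, by 0.18 to 3.66, but both media lay under the floor and no fold is drawn from it. LINC00520 (transcript cluster 16793299), described in breast cancer cells as induced by Src and STAT3, had 6.65 in treated and 5.31 in control medium, a difference of 1.34, and all 9 exon-level probe sets were higher. LINC00663 had 7.47 in treated and 6.26 in control medium in transcript cluster 16870739, but its other row, with the same accession, differed by -0.10. The difference of 1.22 in the first row was 0.92 as the median of its exon-level probe sets, under 2-fold.

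LINC00887 (transcript cluster 16962894), named after its values were seen to complete the count, had 7.61 in treated and 6.41 in control medium, a difference of 1.20. Its 12 exon-level probe sets fell into unlike stretches: the first 6 in ID order were higher by 1.39 to 3.30, and the last 6 differed by -0.25 to 0.97. LINC00669, now MIR924HG, the host gene of miR-924, was the 1 row under the floor that passed downward, with 6.25 in treated and 7.53 in control medium, a difference of -1.29. All 8 of its exon-level probe sets were lower, by -0.15 to -2.12. The next lowest under the floor was LINC00871, with 6.64 in treated and 7.29 in control medium, a difference of -0.65, and 9 of its 10 exon-level probe sets were lower. LINC00889, listed in RefSeq under the growth factor gene FGF13, had 4.98 in treated and 5.57 in control medium, read by 1 exon-level probe set. With every signal under the floor set to the floor, LINC00704 was the 1 LINC row that still differed by at least 2-fold. The same count over all single-symbol rows was not made, so this count of 1 has no background and is not read further.

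**Figure D3:**
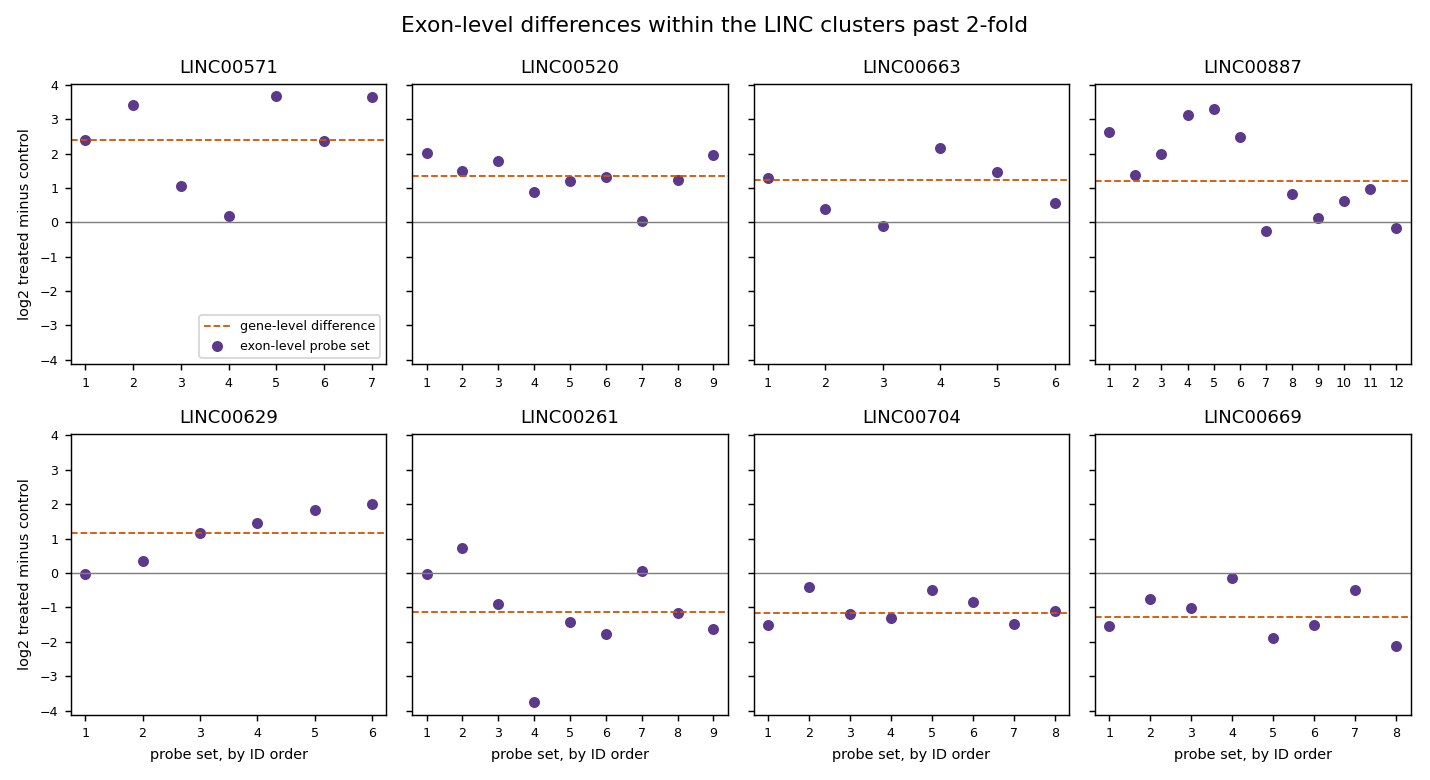
Log2 treated minus control of each exon-level probe set (purple points, in ID order) in the 8 LINC clusters past 2-fold, with the gene-level difference as a dashed line and 0 as a solid line. All probe sets of LINC00571, LINC00520, LINC00704 and LINC00669 lie on the side of the gene-level difference, while those of LINC00887 are at 1.39 to 3.30 over the first 6 and at -0.25 to 0.97 over the last 6.

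The SD of the differences across LINC rows was 0.323, against 0.443 for the other single-symbol rows, and 8 of 430 LINC rows (1.86%) were past 2-fold in either direction, where 4.01% of all single-symbol rows passed. When the other rows were taken at matched signal, in 10 bins holding 43 LINC rows each, their SD was 0.350, a ratio of 0.92, and their share past 2-fold was 1.99%. With exon-level medians, over the 320 LINC rows with at least 3 probe sets, 7 were higher and 3 lower by 2-fold or more (3.125%). At gene level 2.50% of the same rows passed. The exon-level share of other rows is not given here, so the 3.125% has no background and is not set against the 1.99%. LINC rows had the smaller SD in 8 of the 10 bins, with 0.197 against 0.276 in the lowest bin and 0.459 against 0.563 in the highest. In the bin of mean signals from 6.82 to 7.60 the LINC SD was 0.504 against 0.387, and 11.6% of its LINC rows passed 2-fold against 2.84% of the other rows. That bin holds LINC00629, LINC00261, LINC00887, LINC00669 and LINC00663, and the bin from 5.51 to 5.80, at 0.421 against 0.295, holds LINC00571. Against antisense-named rows alone the ratio was 0.99, and over rows with at least 3 exon-level probe sets it was 1.07, so no smaller spread is read from it.

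**Figure D4:**
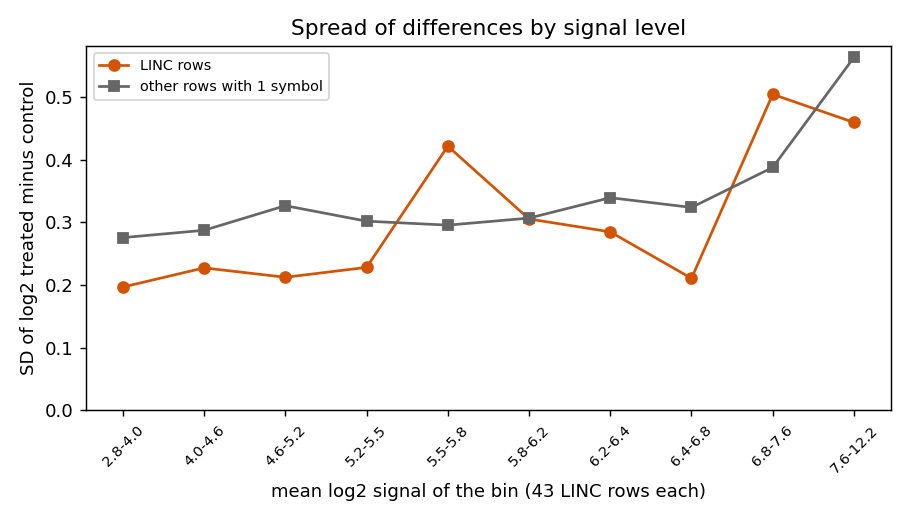
SD across rows of log2 treated minus control (vertical axis) in 10 bins of mean log2 signal (horizontal axis) for LINC rows (orange circles) and the other single-symbol rows (grey squares). LINC rows lie below the others in 8 bins and above them in the bins from 5.51 to 5.80 and from 6.82 to 7.60, which hold 6 of the 8 rows past 2-fold.

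The 10 LINC rows with the highest signal all differed by less than 2-fold. Of the other single-symbol rows with mean signals from 7.61 to 12.2, 7.32% passed 2-fold. An absence among 10 rows is near that share and is not read as a result about them. LINC00657, now NORAD, a cytoplasmic RNA that is induced by DNA damage and binds PUMILIO proteins, had the highest mean of all LINC rows, with 12.29 in treated and 12.04 in control medium, a difference of 0.24. LINC00941 had 10.05 in treated and 9.85 in control medium, and LINC00294 had 10.00 in treated and 9.84 in control medium. LINC00094 (current symbol BRD3OS) had 9.49 in treated and 9.66 in control medium, and LINC00857 had 9.25 in both. LINC00338, now the small nucleolar RNA host gene SNHG20, had 9.41 in treated and 9.24 in control medium. LINC00630 and LINC00641 differed by -0.08 and -0.43. LINC00328 and LINC00601, described above, were the highest and the lowest of these 10 rows by difference, at 0.92 and -0.67.

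Of 23 LINC genes listed for a reported part in cancer or the DNA damage response, 17 were on the array and 10 were above the floor. Among those 10, 0 were higher by 2-fold or more and 1, LINC00261, was lower by as much, with a median of -0.08, where 3.15% and 3.43% of single-symbol rows above the floor passed. Over all 17, LINC00520, under the floor and described above, was higher by 2-fold or more and LINC00261 lower, so 1 passed in each direction. Counts this small are not read as a result about the list. Besides NORAD, CYTOR, LINC00673 and LINC00941, LINC00460 had 7.74 in treated and 7.48 in control medium and LINC00467 had 8.25 in treated and 8.43 in control medium. LINC00346, LINC00707 and LINC00339 differed by -0.06, -0.09 and -0.01. Under the floor, LINC00472, described as suppressing breast tumour growth, had 6.34 in treated and 6.91 in control medium, but its 9 exon-level probe sets were split, 4 higher and 5 lower. LINC00052 differed by -0.53, LINC00312 by -0.31, LINC00511 by -0.25, LINC00324 by 0.13 and LINC00958 by 0.06. As medians of exon-level probe sets, LINC00511 stood at 0.04 and LINC00346 at 0.14, each with the other sign.

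Some LINC genes are now known to encode small proteins. Of 8 listed, 6 were on the array, 2 were above the floor and 0 passed 2-fold. Above the floor 3.15% and 3.43% of single-symbol rows passed upward and downward, and under it 0.841% and 0.601%. A count of 0 in 6 is near the background. LINC00493, now SMIM26, which encodes a mitochondrial microprotein, had 7.95 in treated and 7.46 in control medium, and both of its exon-level probe sets were higher. LINC00961, now SPAAR, which encodes a lysosomal polypeptide that restrains activation of mTORC1 by amino acids, had 7.58 in treated and 7.63 in control medium. LINC00116, now MTLN, the mitoregulin gene of mitochondrial lipid metabolism, and LINC00948, now MRLN, the myoregulin gene of muscle calcium pumps, differed by 0.09 and 0.16 under the floor. LINC00908 and LINC00675 differed by -0.04 and -0.03. RefSeq lists 27 LINC rows as protein coding, a wider set that includes rows matched to SYNE3 (LINC00341), DISP2 (LINC00594) and SPACA6 (LINC00085). The size of the encoded proteins was not looked up for this set. Of these rows 11 (40.7%) were above the floor, compared with 47 of 383 rows (12.3%) listed as lncRNA. Of the 27, 0 passed 2-fold, which at a background of 4.01% of single-symbol rows is not a result about them.

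Other LINC genes host small RNAs, which are cut from introns or exons of the host transcript. Of 12 rows now named as host genes, MIR924HG passed 2-fold and MIR99AHG, listed on the array as LINC00478, came next, with 6.79 in treated and 5.82 in control medium, a difference of 0.97. Of the 12 rows 2 were above the floor, where 3.15% of single-symbol rows passed upward and 3.43% downward. Under the floor those shares were 0.841% and 0.601%. A count of 1 in 12 is too small to read. Of the 11 exon-level probe sets of LINC00478 10 were higher, and their median was 0.61. The mature sequences of miR-924, from which the first host gene takes its name, and of the 5p arms inside LINC00478 are shown with the seed, bases 2 to 8, in capitals, as given by RefSeq. The 3p arms inside LINC00478 and miR-5583, which also lies inside LINC00669, are not printed.
miR-924, in LINC00669: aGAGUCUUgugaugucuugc
miR-99a-5p, in LINC00478: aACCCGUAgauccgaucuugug
let-7c-5p, in LINC00478: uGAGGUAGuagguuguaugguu
miR-125b-5p, in LINC00478: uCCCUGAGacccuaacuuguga

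The 4 seeds are unlike each other. The rows of the microRNA genes inside LINC00478 did not share its difference: MIR99A had 7.03 in treated and 7.02 in control medium, MIRLET7C had 4.20 in treated and 4.26 in control medium, and MIR125B2 had 4.86 in treated and 4.92 in control medium. No row was matched to the gene of miR-924. In all, 16 microRNA genes lay inside the span of a RefSeq gene matched to a LINC row, and 10 had a row of their own. Of those 10, 2 were above the floor and 0 passed 2-fold. Under the floor 0.841% of single-symbol rows passed upward and 0.601% downward, and above it 3.15% and 3.43%. The 2 above the floor were MIR99B, inside SPACA6 (LINC00085), listed as protein coding, and MIR504, inside the growth factor gene FGF13 (LINC00889). The widest difference of the 10 microRNA rows was that of MIR570, inside LINC00969 (now MIR570HG), with 7.42 in treated and 6.50 in control medium. The 3 rows of LINC00969 differed by 0.40, -0.17 and -0.27. These probes read precursor or host sequence in total RNA, so they say nothing of mature microRNA levels. The remaining host gene rows lay between -0.20 and 0.17. SNHG33, listed as LINC00888, had rows at -0.08 and -0.04, MIR9-2HG (LINC00461) differed by 0.09 and MIR9-3HG (LINC00925) by -0.20.

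Another set of LINC genes has been renamed after a neighbouring gene, as divergent transcripts that start at the same promoter region in the opposite direction (DT) or as antisense transcripts (AS). There were 11 divergent and 7 antisense rows, of which 1 was above the floor and 0 passed 2-fold. Under the floor, where the others lay, 0.841% of single-symbol rows passed upward and 0.601% downward, so 0 of 18 is near the background. LINC00337, now ICMT-DT, had 7.29 in treated and 7.79 in control medium, a difference of -0.51, and ICMT, the enzyme gene that methylates prenylated proteins, had 10.74 in treated and 11.45 in control medium, a difference of -0.72. LINC00551, now ARGLU1-DT, differed by -0.39 and ARGLU1, a splicing factor gene, by -0.53. LINC00936, now ATP2B1-AS1, differed by 0.49 and the calcium pump gene ATP2B1 by 0.43. In other pairs the values parted: LINC00893, now EOLA1-DT, differed by 0.56 and EOLA1 by -0.06, and LINC00167, now PRDM10-DT, by -0.46 and PRDM10 by 0.12. RB1-DT (LINC00441), beside the retinoblastoma gene RB1, differed by -0.02 and RB1 by -0.12. Whether the authors' array summaries keep both strands apart is not given in the sources used here.

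**Figure D5:**
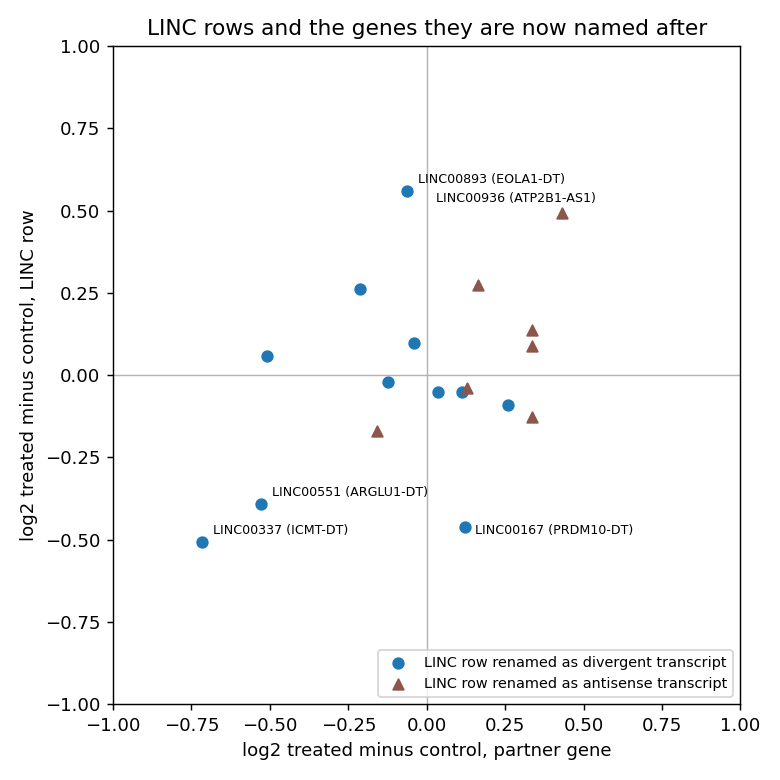
Log2 treated minus control of 18 LINC rows (vertical axis) against that of the gene each is now named after (horizontal axis), for divergent transcripts (circles) and antisense transcripts (triangles). The ICMT and ARGLU1 pairs lie together at the lower left, ATP2B1 at the upper right, and EOLA1 and PRDM10 off the diagonal.

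The genes next to LINC genes were looked up in RefSeq order. Of 229 LINC rows whose nearest protein-coding gene was measured above the floor, 15 had a neighbour past 2-fold, 10 higher and 5 lower. Some neighbours, SLC7A11 and NBEA, were counted for more than 1 row, so these were 12 distinct genes of 182. Of all single-symbol rows above the floor 3.15% passed upward and 3.43% downward. Of the 15 LINC rows themselves 0 passed 2-fold. Under the floor, where all but 1 of the 15 LINC rows lay, 0.841% of single-symbol rows passed upward and 0.601% downward. A count of 0 in 15 is near that background. LINC00499, LINC00500 and LINC00616 have the cystine transporter gene SLC7A11 as nearest coding gene, which had 13.03 in treated and 11.56 in control medium, and differed by 0.25, -0.34 and 0.42. LINC00923 differed by 0.02 beside the arrestin-family gene ARRDC4 at 1.76, and LINC00865 by -0.07 beside the mitotic kinesin gene KIF20B at -1.62. LINC00634, now SMIM45, which overlaps the centromere protein gene CENPM, had 7.27 in treated and 7.11 in control medium, while CENPM had 7.73 in treated and 9.13 in control medium. Of these 15 rows LINC00634 was the 1 above the floor. Across the 229 LINC rows with a neighbour above the floor, Pearson's r of the differences was 0.07 and Spearman's rho 0.06. Across the 36 LINC rows above the floor whose neighbour was also above it, Pearson's r was 0.29 and Spearman's rho 0.42. These are descriptions, over 182 and 34 distinct neighbours, of values measured on the same hybridisations.

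LINC genes are unevenly placed: of the 417 rows matched to RefSeq, 64 lay on chromosome 13, 34 on chromosome 3 and 33 on chromosome 10. Several symbols had more than 1 row, 22 symbols with 47 rows, and the rows of 10 of these symbols had opposite signs. For 9 symbols the rows lay within 0.2 of each other, and LINC00663 was the 1 symbol whose rows differed by more than 1. Of 26 other lncRNA and noncoding RNA genes listed for context, 21 were found and 11 were above the floor, with a median of 0.28, and 2 were at least 2-fold higher and 0 lower, where 3.15% and 3.43% of single-symbol rows above the floor passed. Those were LUCAT1, with 9.05 in treated and 7.07 in control medium, and MIR22HG, with 9.44 in treated and 7.78 in control medium. MALAT1, a nuclear speckle RNA, and TUG1 differed by 0.28 and 0.24, close to NORAD.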

How the data were processed

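Per the submitters' processing notes, the authors made the deposited log2 signals with RMA and Affymetrix Expression Console, at gene level (53617 rows) and exon level (352859 rows). RMA sets the probe signals of its arrays to a shared distribution, so a shift shared by most genes may have been removed; the gene-level medians were 6.31 in treated and 6.33 in control medium. The authors' deposited comparison sheet holds linear intensity per medium and the control over treated ratio; its intensities equalled the antilog of the gene-level values within 5.03e-05 log2 units. The labels mention 5 biological replicates per group, and whether each column is 1 array, a pool or an average is not stated. The 5391 probe sets in both tables were identical, so the levels are 2 summaries of the same hybridisations, not replicates.

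Differences were log2 treated minus log2 control, read by size (2-fold) above a floor of 7.17, with no test. The deposited files do not pair exon-level probe sets with transcript clusters; each was assigned to the cluster ID before it, which gave r = 0.98 with gene-level control signal over 26802 clusters (0.20 after a shift by 1 cluster). RefSeq (GRCh38.p14) matched 278 LINC rows by accession, 99 by symbol and 40 by older symbol, and 13 had none. Named rows were those past 2-fold above the floor, the 10 furthest from 0 in each direction above the floor, the 10 of highest signal, members of the lists, and under the floor the 3 furthest from 0 in each direction; other neighbours, pairs and host genes were chosen after their values were seen. Members and lists were chosen with earlier results of these data known. Scripts ran in Python 3.11.15 with pandas 2.3.3 and numpy 2.4.6 and were tested on simulated data. Precision is limited by the number of arrays.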

Additional observations from a re-analysis of the deposited data

How the results depend on the processing

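Each of the 2 counts above the floor, of rows at least 2-fold higher and lower, was the same with median centring, quantile normalization, exon-level medians over clusters with at least 3 probe sets, and 1 cluster per symbol. With a floor at the 75th percentile, 8.93, both counts were 0. LINC00629, LINC00261 and LINC00704 had means of 7.43, 7.33 and 8.56, under that floor. The share of all single-symbol rows past 2-fold above it is not given here, so these counts have no background. Without a floor 5 rows were higher and 3 lower, where 4.01% of all single-symbol rows passed in either direction. At 1.5-fold 7 rows above the floor were higher and 4 lower, where 9.45% and 9.55% of single-symbol rows above the floor passed. Of all 430 LINC rows 5.58% were past 1.5-fold and 94.4% within it, where 87.6% of all single-symbol rows lay within it. The median above the floor was 0.058 and ranged from -0.024 (no floor) to 0.157 (floor at the 75th percentile), so it changed sign without a floor. The median of all rows was between -0.034 and 0.00075. The SD ratio to level-matched rows was 0.92 and lay between 0.89 and 0.99 with 5 bins, interquartile ranges, antisense-named rows or bins that also matched the number of probe sets. It was 1.08 with exon-level medians and 1.07 over rows with at least 3 exon-level probe sets, so whether LINC rows spread less or more than other rows depends on which rows are kept; the cause was not tested. Bins by probe set number, the restriction to 3 probe sets and the removal of rows listed as protein coding were chosen after seeing the data. With exon-level medians 3.125% of LINC rows with at least 3 probe sets were past 2-fold, with no exon-level share of other rows beside it. LINC00663 stood at 0.918, under 2-fold. No named row past 2-fold changed sign there or under another scaling. Of the named rows, 16 moved by more than 0.1 log2 units with exon-level medians and 29 did not. Some with small differences changed sign, among them LINC00511, LINC00346 and LINC00948. No paired analysis was possible because each medium has 1 column per level and no test was run.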
